A study of Mus musculus with 6 samples.

Results

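The 10 genes described here code for receptors, ligands and target genes of the Notch pathway. They are *Notch1*, *Notch2*, *Notch3*, *Jag1*, *Jag2*, *Dll1*, *Hes1*, *Hey1*, *Heyl* and *Nrarp*, and they were chosen by name among the 20624 genes of the analysed table, in which each has 1 row. RNA was sequenced after removal of ribosomal RNA from mDCT15 cells, a line of mouse distal convoluted tubule cells, in 3 wild type and 3 *Pkd1*-/- samples. *Pkd1*, which codes for polycystin-1, was edited with CRISPR-Cas9 in the *Pkd1*-/- cells, whereas the genotype field of the labels describes a knockdown. Whether these cells are 1 clone is not given in the sources used here. Per the study's methods, both groups were cultured in the same serum-containing medium, with no treatment named in the labels. Those methods do not say which medium the cells were in when RNA was taken.

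The study set *Pkd1*-/- cells against wild type cells. The only value used here is a pooled mean for each gene, the authors' mean over all 6 samples of the read count divided by the size factor of each library. The fold changes and p-values of the authors' own comparison were not used, so no difference between the genotypes is given. Both genotypes enter every level in equal number of samples, and a level can differ between them by any amount that the mean does not show. No level below has a standard deviation, an interval or a test, because only the pooled mean was used, and the depth of each library is unknown. For the same reason it cannot be said which neighbours in an order of levels differ by more than the spread between samples. The library kit (KAPA RNA HyperPrep with RiboErase) is known to keep the strand of the RNA, while the read counting is given as run with default parameters and its strand setting is not stated, which bears on the strand that every level counts. Over the table, 53 pairs of a long non-coding gene and a protein-coding gene on the opposite strand share at least 80% of the exon bases of the former, positions at which counting of the wrong strand would give the reads of the one gene to the other. The protein-coding gene had the higher level per kb of exon in 48 of these pairs, and the median level of the non-coding gene was 1.88% of that of its partner. Whether the strand was used or ignored cannot be told apart from these values, so reads of genes that overlap on opposite strands may not be fully separated. *Pkd1* itself had a pooled mean normalized count of 3175, which over both genotypes does not check the edit.

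Notch receptors are membrane proteins that bind ligands on neighbouring cells. Ligand binding exposes the receptor to ADAM proteases and then to gamma-secretase, which frees the intracellular part to enter the nucleus, join the DNA-binding protein RBPJ and a Mastermind-like co-activator, and switch on target genes such as those of the Hes and Hey families. In the kidney the pathway is known for its part in nephron segmentation during development and in the choice between principal and intercalated cells of the collecting duct.

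In mDCT15 cells, the transcripts of 1 receptor, 1 ligand and 1 target gene stood above those of the other members of their role. These were *Notch2*, *Jag1* and *Hes1*, with 561, 286 and 407 mean normalized counts per kb of exon. Per kb of exon here means that the pooled mean was divided by the length covered by all annotated exons of the gene, so that genes of different length can be set side by side. On this scale 6 of the 10 members lay over the median of 28.6 of all genes with a length, and only *Notch2*, *Jag1* and *Hes1* lay over the 75th percentile, at 129.6. These genes include non-coding ones, and 5 members lay over the median of protein-coding genes alone. At the other end, *Heyl* had 0.618 mean normalized counts per kb, so that the members spanned a 908-fold range.

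**Figure D1:**
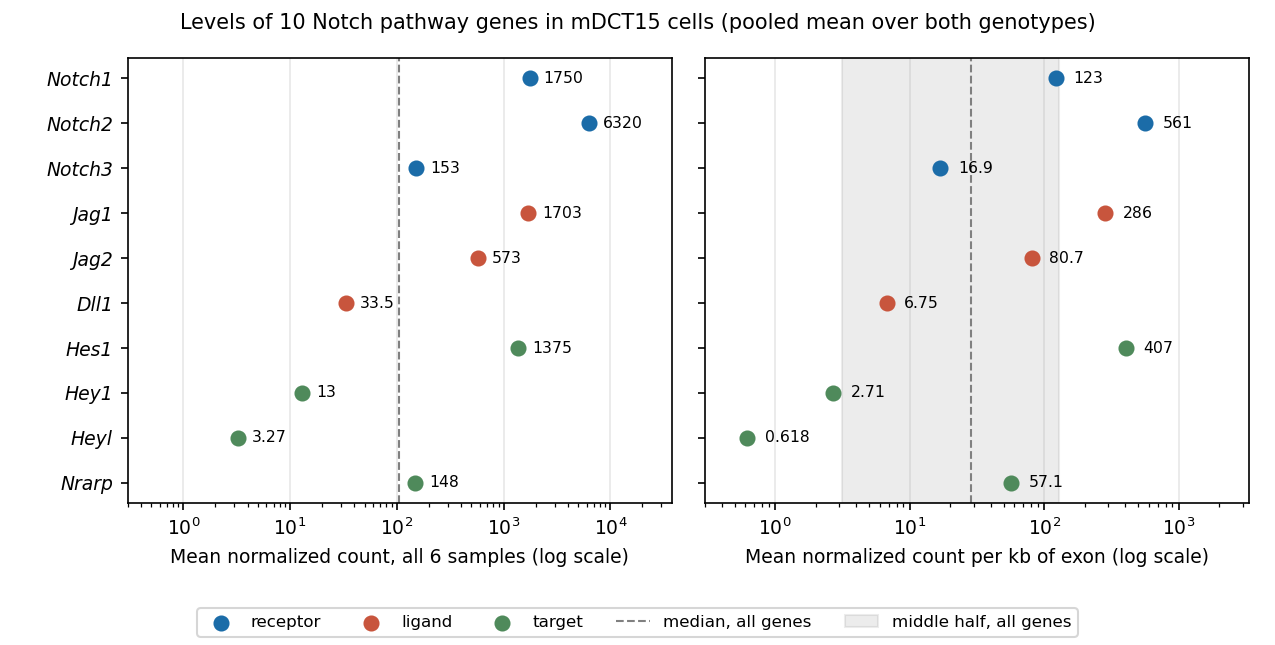
Pooled mean normalized count of each Notch pathway gene over all 6 samples (left) and the same per kb of exon (right), both on log axes, with receptors in blue, ligands in red and targets in green. The dashed lines mark the medians of all genes (104.5 on the left and 28.6 on the right) and the shading marks the span from the 25th to the 75th percentile of all genes per kb, and *Notch2*, *Jag1* and *Hes1* lie to the right of it.

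Among the receptors, *Notch2* (ENSMUSG00000027878, at chr3:97920800-98057677 on the plus strand of GRCm39, the build of all positions here) had a pooled mean of 6320 normalized counts. By this mean it ranked 292 of the 20624 genes, and by its 561 counts per kb it was higher than 95.6% of the genes with a length. *Notch1* (ENSMUSG00000026923, chr2:26347915-26406675, minus strand) had a pooled mean of 1750 normalized counts and 123 per kb, at percentile 73.9. *Notch3* (ENSMUSG00000038146, chr17:32339794-32385893, minus strand), a receptor best known from vascular smooth muscle, had a pooled mean of 153 normalized counts. Its 16.9 counts per kb lay under the median of all genes, at percentile 43.9. The level of *Notch2* per kb was thus 4.56 times that of *Notch1* and 33.1 times that of *Notch3*, and *Notch2* made up 80.0% of the summed level of these 3 receptors per kb. The remaining receptor of the family, *Notch4*, which is typical of endothelium, had 1.78 counts per kb, under all 3 of them.

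*Notch1* is the receptor whose level depends most on the annotation. Its annotated exons cover 14.2 kb, while its longest transcript has 9.49 kb. With the length of that transcript its level was 184 counts per kb and *Notch2* was 3.25 times as high, at 599. *Notch1* also shares 14.0% of its exon bases with the long non-coding gene *0610009E02Rik* on the opposite strand, whose pooled mean was 8.63.

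The ligands showed the same kind of spread. *Jag1* (ENSMUSG00000027276, chr2:136923373-136958693, minus strand), a Jagged ligand needed for tubule formation in the developing nephron, had a pooled mean of 1703 normalized counts. Per kb it had 286 counts, at percentile 88.9 of all genes. *Jag2* (ENSMUSG00000002799, chr12:112871421-112893437, minus strand), the other Jagged ligand, had a pooled mean of 573 normalized counts and 80.7 per kb, at percentile 66.0. *Jag1* was thus 3.54 times as high as *Jag2* per kb. *Dll1* (ENSMUSG00000014773, chr17:15587276-15597134, minus strand), a Delta-like ligand, had a pooled mean of 33.5 normalized counts. Its 6.75 counts per kb were at percentile 33.8, and *Jag1* was 42.3 times as high.

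The low value of *Dll1* has a further limit. Of its exon bases, 27.6% are shared with *Fam120b*, a gene on the opposite strand with a pooled mean of 1094 normalized counts. Reads lost to that gene, or gained from it, were not tested. The other Delta-like ligands on the list were low too, with 3.45 counts per kb for *Dll4* and 0.277 for *Dll3*, which is known to act within the cell that makes it. All 3 Delta-like genes therefore lay under both Jagged genes per kb, and *Jag1* made up 76.6% of the summed level of *Jag1*, *Jag2* and *Dll1*.

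The target genes differed most. *Hes1* (ENSMUSG00000022528, chr16:29882134-29886643, plus strand), which codes for a transcriptional repressor that also limits its own transcription, had a pooled mean of 1375 normalized counts. Its 407 counts per kb were at percentile 93.0 of all genes, second to *Notch2* among the members. *Nrarp* (ENSMUSG00000078202, chr2:25070770-25073351, plus strand), a target whose small ankyrin repeat protein binds the nuclear Notch complex and restrains it, had a pooled mean of 148 normalized counts. It has 1 exon and 1 annotated transcript, and its 57.1 counts per kb were at percentile 59.9. *Nrarp* and *Notch3* had close pooled means, but the transcript of *Nrarp* is shorter, so that *Nrarp* was 3.37 times as high per kb.

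The Hey genes stood apart from *Hes1*. *Hey1* (ENSMUSG00000040289, chr3:8726956-8732385, minus strand), which codes for a repressor related to the Hes proteins, had a pooled mean of 13.0 normalized counts. It had 2.71 counts per kb, at percentile 23.1. *Heyl* (ENSMUSG00000032744, chr4:123127349-123143682, plus strand), a gene of the same family, had a pooled mean of 3.27 normalized counts. This is a sum of 19.6 normalized counts over all 6 samples, so a few reads carry the value. The third gene of the family, *Hey2*, had 1.59 counts per kb. *Hes1* was 150 times as high as *Hey1* and 7.13 times as high as *Nrarp* per kb, and it made up 87.1% of the summed level of the 4 targets. Of the exon bases of *Nrarp*, 79.4% are shared with the long non-coding gene *Gm38287* on the opposite strand, whose pooled mean was 0.658. Whether reads of *Nrarp* were lost at these shared bases was not tested. The level of *Nrarp*, and each ratio and share that uses it, carry this limit. For *Hes1* and *Hey1* such shared bases came to 2.22% and 5.65%, in each case with 1 gene that has no row in the analysed table, and no shared exon bases were found for *Heyl*.

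The order of the members per kb was *Notch2*, *Hes1*, *Jag1*, *Notch1*, *Jag2*, *Nrarp*, *Notch3*, *Dll1*, *Hey1* and *Heyl*. It was the same with the length of the longest transcript of each gene. With the coding length alone, *Hes1* came before *Notch2*, with 1625 against 852 counts per kb of coding sequence, and *Nrarp* rose to the place after *Jag1*, with 431. The coding sequence is 13.2% of the longest transcript of *Nrarp* and 30.5% of that of *Hes1*, against 70.3% for *Notch2*. In this library type reads fall on untranslated exons too, so a level per coding length is raised most in genes with long untranslated parts.

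**Figure D2:**
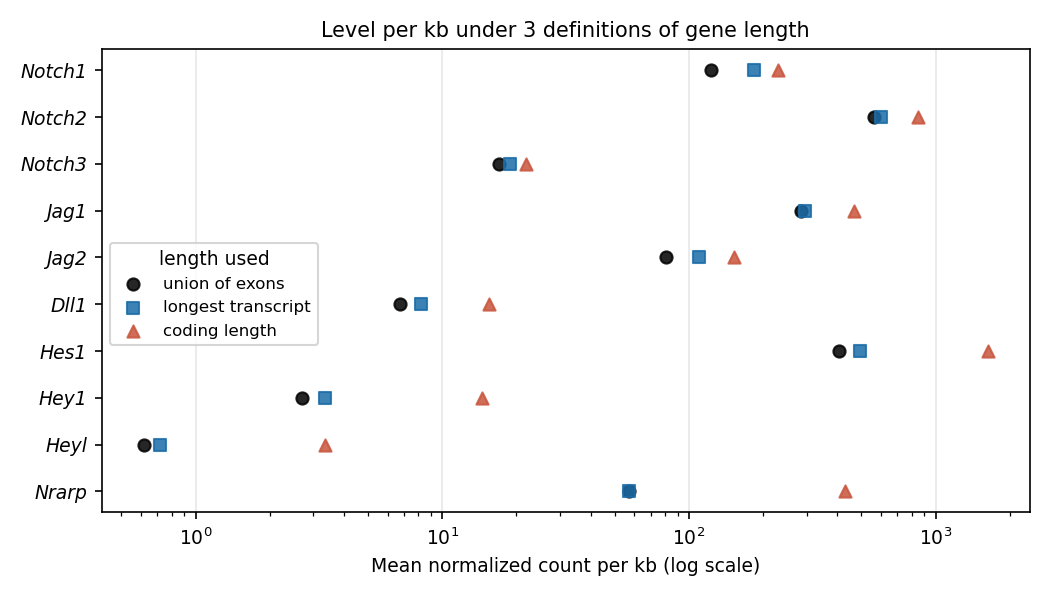
Level of each Notch pathway gene per kb under 3 definitions of gene length, on a log axis, with circles for the union of the annotated exons, squares for the longest transcript and triangles for the coding length. Circles and squares lie farthest apart for *Notch1*, at 123 and 184, while the triangle of *Nrarp* lies 7.55 times above its circle.

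The members were then placed beside other genes of the pathway, from a list of 55 genes grouped by role, of which 50 have a row in the table. Of these 50, 42 had a pooled mean of at least 100 normalized counts, as had 7 of the 10 members and 50.3% of all genes. The median level was 101 counts per kb in the list and 68.9 in the members, against 28.6 over all genes. All 10 members are protein-coding, but only 13862 of the 20122 genes with a length are. Among protein-coding genes, *Nrarp* at 57.1 counts per kb was at percentile 44.4 and *Jag2* at 80.7 was at percentile 52.6. The median of protein-coding genes thus lies between these levels, as does that of the members. The share of protein-coding genes with a pooled mean of at least 100 was not computed. The proteases that cut the receptors were among the higher genes of the list. *Adam10*, which makes the ligand-dependent cut, had 504 counts per kb of exon, the highest of the list on this scale. With the longest transcript as length, the co-repressor gene *Ctbp1* was above it, at 630 against 599. *Adam17* had 159 counts per kb of exon, and *Furin*, which matures the receptors, had 217. All 7 gamma-secretase genes had a pooled mean of at least 100, from 20.7 counts per kb for *Aph1c* to 373 for *Ncstn*, which codes for the subunit nicastrin.

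In the nuclear complex all 8 listed genes had a pooled mean of at least 100. The DNA-binding partner *Rbpj* had 52.7 counts per kb of exon, well under *Hes1*. Its level depends on the length used, and with the longest transcript it was 109, against 495 for *Hes1*. Among the Mastermind-like co-activators, *Maml1* had 211 counts per kb, *Maml2* 37.5 and *Maml3* 13.3, and the acetyltransferase gene *Kat2a* was the highest of the group at 368. The co-repressors ranged from 32.0 counts per kb for *Tle2* to 475 for *Ctbp1*, a gene that also acts in many other pathways. *Dtx3*, of the Deltex ubiquitin ligases, was the highest of the genes of receptor trafficking and turnover, at 358.

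Genes that modify receptors or ligands also had transcripts. Of the Fringe glycosyltransferases, which add sugars to the receptor and thereby change its answer to Delta-like and Jagged ligands, *Lfng* had 202 counts per kb, *Rfng* had 103 and *Mfng* had 0.899. All 3 genes of the enzymes that start sugar chains on the receptor, led by *Poglut1* at 144 counts per kb, had a pooled mean of at least 100. *Mib1*, the ubiquitin ligase that makes ligands active, had 219 counts per kb. *Dlk2*, a ligand-like gene outside the canonical set, had 8.30 counts per kb. Of the further Hes and Hey genes, *Hes6* was the highest at 125 counts per kb, and *Hes7* and *Hey2* had 7.40 and 1.59. Of the list, the 3 genes under a pooled mean of 10 were *Dll3*, *Mfng* and *Hey2*. *Dlk1*, *Dtx1*, *Hes2*, *Hes3* and *Hes5* have no row in the analysed table, from which no level is read.

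**Figure D3:**
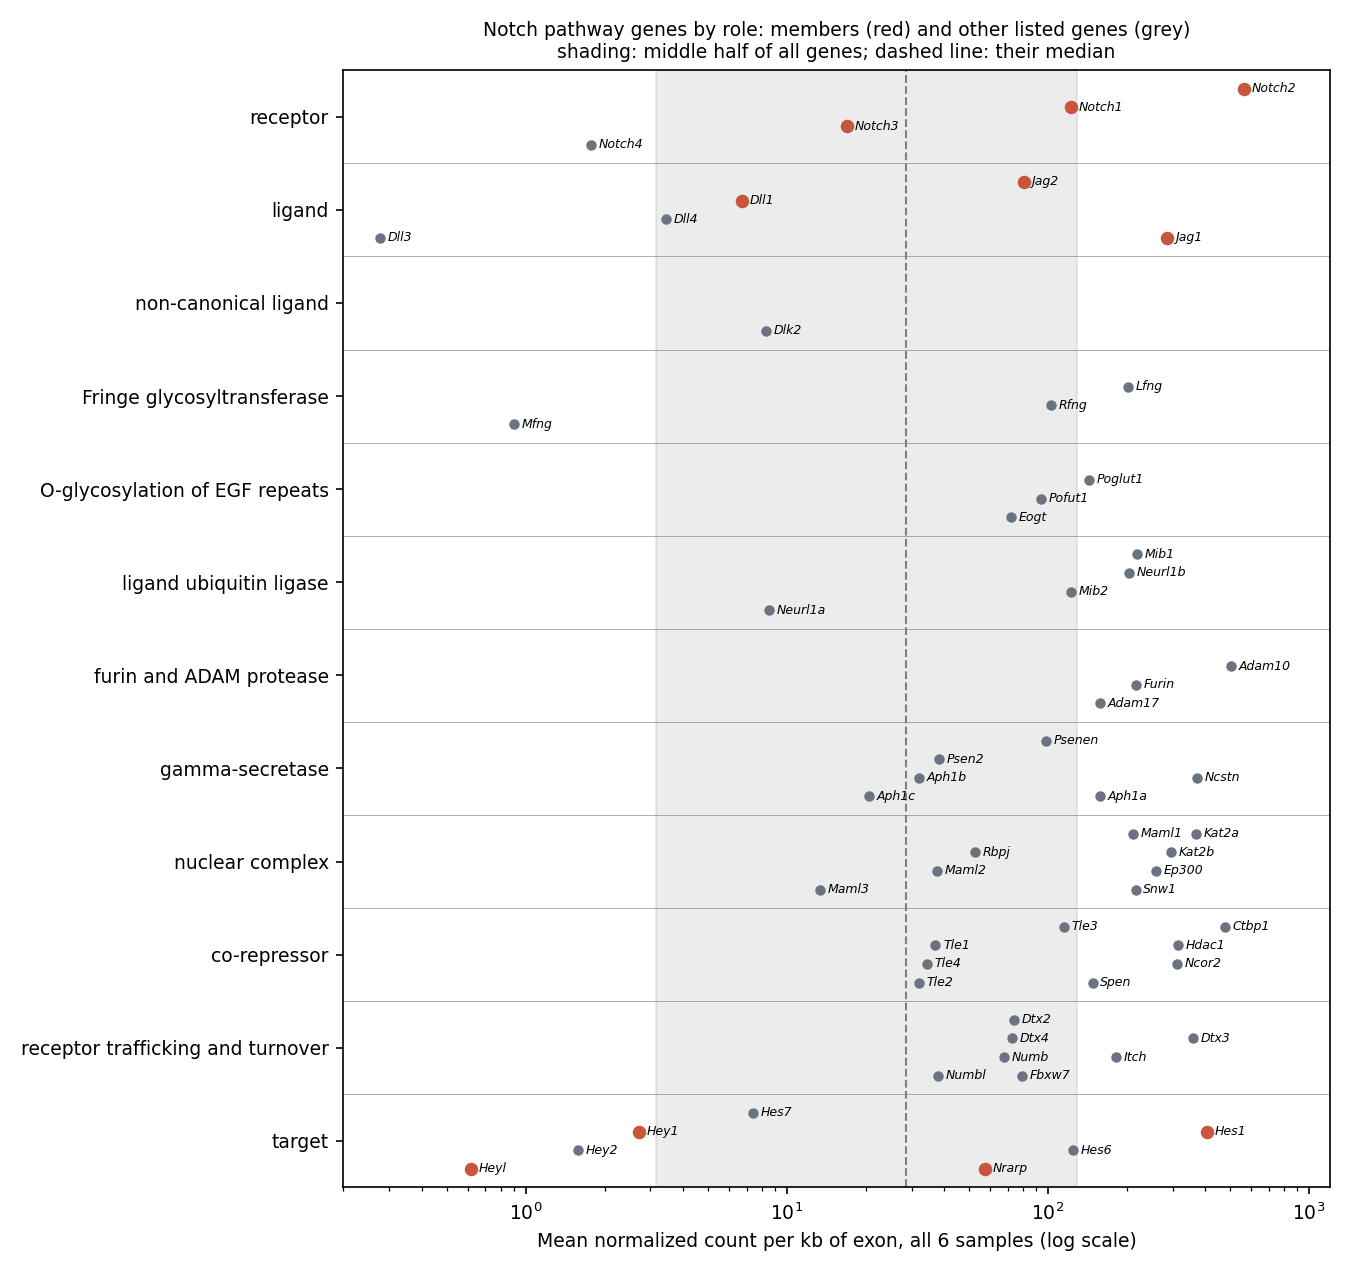
Level per kb of exon, on a log axis, of the 10 members (red) and 49 of the 50 other listed genes of the Notch pathway (grey), in rows by role, with the position of a point within its row set only for legibility. The shading and dashed line mark the span from the 25th to the 75th percentile and the median of all genes, and the low ends of the receptor, ligand, Fringe and target rows (*Notch4*, *Dll3*, *Mfng* and *Heyl*) lie to the left of the shading.

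The cell type of the label was looked up in marker genes. Of 9 markers of the distal convoluted tubule, 6 have a row and 3 had a pooled mean of at least 100, as had 50.3% of all genes. These 3 were *Cnnm2*, *Wnk4* and *Stk39*, with 122, 94.5 and 57.9 counts per kb. *Trpm6*, *Egf* and *Klhl3* had pooled means of 29.6, 48.3 and 5.70. The sodium-chloride cotransporter gene *Slc12a3*, which defines this segment, *Pvalb* and *Calb1* have no row. Of the general markers of kidney epithelium, *Cdh16*, *Pax8* and *Pax2* had 1125, 679 and 373 counts per kb and *Epcam* had 44.6, all 4 with a pooled mean of at least 100, whereas *Krt8* had 0.501 and *Cdh1* and *Krt18* have no row. *Lrp2*, the megalin gene and a marker of the proximal tubule, had 528. In the vascular and blood lists, where Notch genes are often expressed, *Pecam1* had 0.468 counts per kb and *Ptprc* 0.286, *Cdh5* and *Kdr* have no row, and *Cd68* had 30.6. The fibroblast genes *Col1a2*, *Dcn* and *Pdgfra* were at 0.214 to 0.461 counts per kb, and *Col1a1* at 30.5. Of the markers of connecting tubule and collecting duct, *Aqp3* had 1.06 counts per kb, *Scnn1g* had 0.193 and the other 3 have no row. Of the proximal tubule genes besides *Lrp2*, *Cubn* had 11.3, *Slc5a2* 0.958 and *Slc34a1* 0.322 counts per kb. The 4 intercalated cell and 2 thick ascending limb markers have no row.

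Promoter windows from RefSeq (assembly GRCm38.p6, 250 bases before to 50 after the start site) were found for 7 of the 10 members, in 8 windows since *Dll1* has 2. *Hes1*, *Hey1* and *Heyl* had none. Each window matched the GRCm39 chromosome of its gene exactly once. The window of *Notch1* has its start site 12841 bases along the strand from the start of the gene in the exon annotation. For 1 window of *Dll1* and for those of *Jag2* and *Jag1* this distance was 1049, 322 and 253 bases. With 250 bases before the start site, the windows named here lie inside the annotated gene and hold no bases before its start. The core of the RBPJ motif, TGGGAA on either strand, was in 0 of these 8 windows, while 25.6% of all 32851 windows of that length hold it. The longer form GTGGGAA, which contains the core, was also in 0 of them, against 6.38% of all windows. No match says only that these letters are not in these windows. *Nrarp* is the only target gene with a window, and the bases before its start site are shown so that the searched letters can be read, all in lower case because no motif was found. They lie at chr2:25070520-25070769 of GRCm39, plus strand.
Nrarp: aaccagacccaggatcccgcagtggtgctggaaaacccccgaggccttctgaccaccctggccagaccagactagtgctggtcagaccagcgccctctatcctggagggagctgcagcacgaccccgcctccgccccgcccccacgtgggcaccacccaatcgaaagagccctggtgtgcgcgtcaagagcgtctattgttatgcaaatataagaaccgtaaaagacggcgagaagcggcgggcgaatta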

How the data were processed

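RNA of 3 wild type and 3 *Pkd1*-/- mDCT15 samples was grouped by the sample titles. Per the labels and the study's methods, the authors trimmed reads with Trim Galore 0.4.5, mapped them to GRCm39 with STAR 2.7.5a, counted them per gene with HTSeq 0.11.0 and ran DESeq2 1.22.0 in R 3.5.3. Of the deposited table, the mean normalized count over all samples was used, a signal scaled by library size and not by gene length. The 5 other numeric columns hold the authors' comparison of the genotypes (fold change, its standard error, test statistic, p-value and adjusted p-value) and were not used. Therefore the genotype test planned for counts of single samples was not run, and depth and replicate spread are unknown.

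Levels per kb used exon lengths from GENCODE M39 (GRCm39), which holds 20122 identifiers of the table (97.6%). The authors' annotation was an earlier Ensembl release, so lengths may differ from theirs. A percentile is the share of these genes with a lower level per kb. Functions were tested on simulated data. Python 3.11.15, numpy 2.4.6, pandas 2.3.3 and matplotlib 3.10.9 were used. The members and lists were chosen with earlier results of these data known. All members were named, and of the pathway list the highest gene per kb of each role and those with a pooled mean under 10, plus other genes chosen after their values were seen. Other lengths, sets of genes, minimum means and motif settings were tried. The value of 1 listed gene is not reported here.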

Additional observations from a re-analysis of the deposited data

How the results depend on the processing

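*Notch2*, *Jag1* and *Hes1* had the highest level per kb of their roles with each length tried. With the longest transcript in place of all exons, their shares of the summed level of the role were 74.7%, 71.4% and 89.0%, and with the coding length 77.1%, 73.5% and 78.3%. Among genes with a pooled mean of at least 10, 4 members lay over the median per kb, and among protein-coding genes 5 did, against 6 of all. *Nrarp* was on the lower side in both, at percentiles 41.1 and 44.4, and *Jag2* in the former, at 49.9. *Heyl* has no value there, since its mean is under 10. At a minimum mean of 1000, 18 of the other pathway genes passed in place of 42, and at a minimum of 10, 47 did. No member has more than 1 identifier, so summing identifiers changed no level, and the other motif settings changed no count. No paired analysis was possible because only means over all samples were used, and for the same reason the planned test with other normalizations, filters or left-out samples was not run.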
